A study of Mus musculus with 3 samples.

Results

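The 5 genes Ifitm1, Ifitm2, Ifitm3, Kit and Alpl encode cell-surface or membrane proteins by which early germ cells have long been recognised. They were taken by name from the 14133 genes of the deposited table, and all 5 were present. The series sequenced RNA of single primordial germ cells, from which the oocytes form. The 3 groups are named by the embryonic day of collection: E12.5, then E14.5, then E16.5. All groups share the C57BL/6 strain, the fetal ovary as source, the label female and an Oct4-EGFP reporter (Oct4 is Pou5f1), and cells entered a library by sorting for EGFP, so each library is a selected population of the ovary. Each stage is 1 library, so no test between stages was possible, stage and library cannot be told apart, and every interval given is a 95% interval of counting error alone (exact Poisson for levels, exact binomial for shares of cells).

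IFITM proteins are small interferon-inducible transmembrane proteins that restrict the entry of enveloped viruses into cells. Ifitm3 (fragilis) and Ifitm1 also mark the founding primordial germ cells of the mouse embryo. KIT is the receptor tyrosine kinase for KIT ligand (Kitl), and the pair supports the survival, proliferation and migration of germ cells and later the growth of oocytes. Alpl encodes tissue-nonspecific alkaline phosphatase, an enzyme held at the cell surface by a glycosylphosphatidylinositol (GPI) anchor, whose activity is the classical stain for primordial germ cells.

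In GRCm38, Ifitm2 (chromosome 7, 140954837 to 140955987, minus strand), Ifitm1 (chromosome 7, 140967221 to 140969825, plus strand) and Ifitm3 (chromosome 7, 141009586 to 141010770, minus strand) lie side by side. Kit lies on chromosome 5 (75574916 to 75656722, plus strand) and Alpl on chromosome 4 (137741733 to 137796384, minus strand). The coding sequences of Ifitm2 and Ifitm3 were 76.6% identical, those of Ifitm1 and Ifitm3 66%, and those of Ifitm1 and Ifitm2 62.3%. The longest annotated transcripts of Ifitm2 and Ifitm3 shared 39 stretches of 31 bases, but 0 of them lay in the last 300 bases of either, where reads of a 3' kit mostly fall. The same count in the last 300 bases was 0 for both other pairs, so reads from the 3' ends of the 3 genes differ, although reads further upstream could still be shared.

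Since the 3 neighbouring Ifitm genes had lower levels together at later stages, as given further on, their start regions were compared. The windows shown run from 170 bases before to 30 after the RefSeq start (GRCm38.p6), written 5' to 3' on the gene's strand, with capitals for the core of the interferon-stimulated response element (GAAA, any 2 bases, GAAA).
Ifitm2, chr7:140955932-140956131, minus strand: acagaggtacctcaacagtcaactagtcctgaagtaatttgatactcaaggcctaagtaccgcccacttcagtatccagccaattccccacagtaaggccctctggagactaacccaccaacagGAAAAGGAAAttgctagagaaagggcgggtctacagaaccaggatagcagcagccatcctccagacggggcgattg
Ifitm3, chr7:141010715-141010914, minus strand: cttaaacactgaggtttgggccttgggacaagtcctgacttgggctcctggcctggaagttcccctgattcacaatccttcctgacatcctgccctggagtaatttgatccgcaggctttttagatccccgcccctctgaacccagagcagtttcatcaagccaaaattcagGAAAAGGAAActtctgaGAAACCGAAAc
Ifitm1, chr7:140967906-140968105, plus strand: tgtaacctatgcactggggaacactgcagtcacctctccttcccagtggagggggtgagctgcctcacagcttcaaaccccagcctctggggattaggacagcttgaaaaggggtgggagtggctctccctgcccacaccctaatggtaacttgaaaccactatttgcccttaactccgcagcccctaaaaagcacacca
On both strands, this core was found once in the Ifitm2 window (position -46) and at 2 places in the Ifitm3 window (positions 3 and 20 after the start), and 3.44% of 32851 RefSeq promoter windows of 300 bases held it. No match was found in the windows of Ifitm1, Kit or Alpl. The GENCODE start of Ifitm1 given above (140967221) lies upstream of its RefSeq window, and the region around that start was not searched. The octamer ATGCAAAT (1.74% of windows) and the E-box CACGTG (7.15%) were in none of the windows of the 5 genes. The GC box GGGCGG (35.7% of windows) was in those of Ifitm2, Ifitm3 and Kit. For Alpl it was in the window of the first start and not in that of the second. The first start windows of Alpl and Kit were 70.0% and 69% G and C, against 49.7% to 53% in the Ifitm windows.

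Depth differed between the libraries. The E12.5 library had 4706 cells and a median of 26692 UMIs (unique molecular identifiers, each marking 1 RNA molecule) per cell, the E14.5 library 9075 cells and 10960 UMIs, and the E16.5 library 5363 cells and 12659 UMIs. After 34 called doublets were left out, cells in 9 of 10 clusters were germ-cell-like by their markers (4680, 8905 and 5312 cells in time order), and 1 cluster of 213 cells was pregranulosa-like, the somatic supporting cells of the ovary. Libraries in time order shared 58 (E12.5 and E14.5) and 72 (E14.5 and E16.5) cell barcodes, and E12.5 and E16.5 shared 43. UMIs of Y-linked genes were found in 666 of the 4680 E12.5 germ-cell-like cells, although the library is labelled female, and in 0 cells at the later stages. Summed markers of pregranulosa cells stood at 25.2, 29.8 and 19.1 counts per 1000000 UMIs (CPM) in the germ-cell-like cells in time order, and 18 of 20 were measured with none at 0. Erythroid markers stood at 0.303, 11.9 and 76.7 CPM (4 of 8 measured, none at 0). Summed markers of 3 other lists were lower at each later stage, as the 5 genes were: mesonephric and epithelial (4 of 7 measured) at 237, 97.5 and 56.3 CPM, endothelial (6 of 8) at 98.5, 40.2 and 28.6 CPM, and blood and immune (2 of 8) at 5.62, 2.24 and 1.04 CPM, with none of the measured genes at 0. Most of the mesonephric and epithelial sum at each stage was Epcam alone, at 226, 89.4 and 44.4 CPM. Of the endothelial sum, Pecam1 made up 64.7, 13.8 and 13.6 CPM. Epcam and Pecam1 are also on the list of germ cell surface genes given further on. The part of these RNAs in the results that follow was not tested.

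All 5 genes were lower at each later stage. Ifitm1 stood at 1134 CPM (1128 to 1140) at E12.5, 411 CPM (407 to 415) at E14.5 and 70.4 CPM (68.4 to 72.4) at E16.5. Ifitm2 stood at 1099 CPM (1093 to 1104), 489.5 CPM (485 to 494) and 59.3 CPM (57.5 to 61.1). Ifitm3 stood at 913 CPM (907 to 918), 199.8 CPM (197 to 203) and 38.7 CPM (37.3 to 40.2). For each of the 3 Ifitm genes the counting intervals of the stages lay far apart, with E12.5 highest and E16.5 lowest.

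Kit stood at 47.2 CPM (46 to 48.4) at E12.5, 21.1 CPM (20.2 to 22) at E14.5 and 11.1 CPM (10.3 to 11.9) at E16.5. Alpl stood at 105 CPM (103 to 107), 57.1 CPM (55.6 to 58.6) and 5.23 CPM (4.71 to 5.8). Both genes kept the same order of stages as the Ifitm genes, with intervals that did not overlap.

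**Figure D1:**
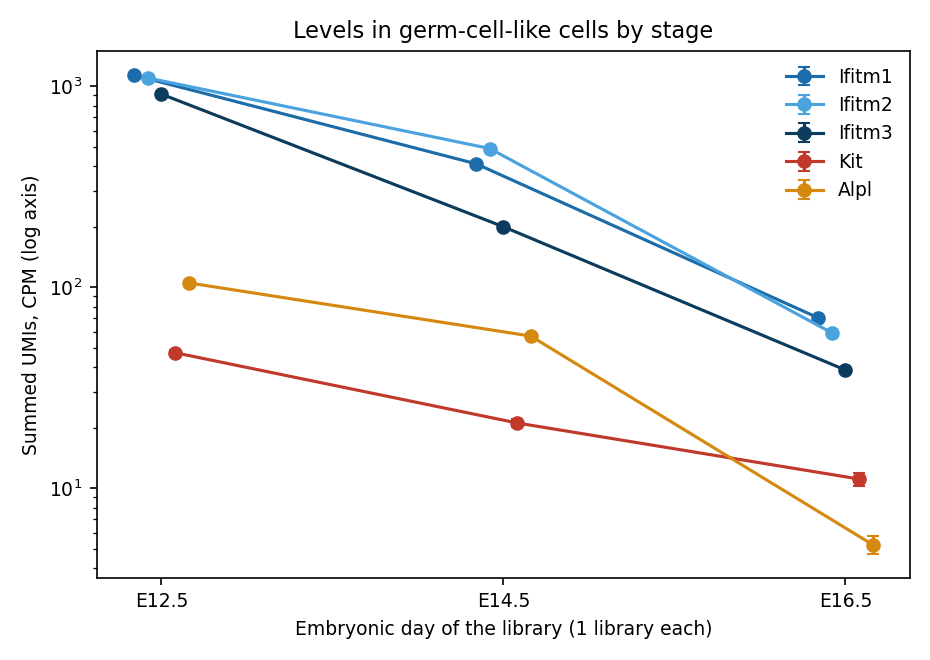
Level of each gene in the germ-cell-like cells of each library, as CPM of summed UMIs on a log axis, with exact Poisson 95% intervals. Every line falls from E12.5 to E16.5, Alpl mostly in the second step (57.1 to 5.23 CPM) and Kit by the least (47.2 to 11.1 CPM).

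Between E12.5 and E14.5, Ifitm3 was 4.57-fold lower, Ifitm1 2.76-fold, Ifitm2 2.24-fold, Kit 2.24-fold and Alpl 1.83-fold. Thus 4 of 5 genes were at least 2-fold lower, against 16.3% of all 14111 genes compared. The median log2 ratio of all genes was 0.30, and under median-of-ratios scaling, which moved it to -0.03, all 5 genes were at least 2-fold lower (Alpl at a log2 ratio of -1.20), against 22.3% of all genes. Of all genes past 2-fold, 65.7% were higher at E14.5 under CPM scaling and 53.1% under median-of-ratios scaling.

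Between E14.5 and E16.5, Alpl was 10.9-fold lower, Ifitm2 8.26-fold, Ifitm1 5.84-fold, Ifitm3 5.16-fold and Kit 1.9-fold. Again 4 of 5 genes were at least 2-fold lower, against 17.4% of 14110 genes. Alpl had the 80th lowest ratio of these genes and Ifitm2 the 180th lowest, while 18.6% of genes had a lower ratio than Kit. From E12.5 to E16.5 all 5 were at least 2-fold lower, against 22.7% of 14132 genes. Ifitm3 was 23.6-fold lower over that span, Alpl 20.0-fold, Ifitm2 18.5-fold, Ifitm1 16.1-fold and Kit 4.26-fold. The 3 comparisons share their libraries, so they do not repeat each other independently.

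CPM is a share of a cell's captured RNA, and the mean number of UMIs per cell fell from 26756 at E12.5 to 11516 at E14.5, with 12984 at E16.5. In UMIs per cell, Ifitm1 went from 30.3 to 4.74 and 0.914, Kit from 1.26 to 0.243 and 0.144, and Alpl from 2.8 to 0.657 and 0.068. The differences were therefore larger in UMIs per cell than in CPM at the first step. Sequencing depth and RNA content per cell cannot be told apart here.

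To compare shares of cells at 1 depth, each cell was thinned to 5000 UMIs, which left out 0, 11 and 25 shallower germ-cell-like cells in time order. In time order, a UMI of Ifitm1 was then found in 99% (98.7 to 99.3%), 74.4% (73.5 to 75.3%) and 23.1% (21.9 to 24.2%) of cells. Ifitm2 was found in 99.2%, 80.3% and 15.9% of cells, and Ifitm3 in 96.4%, 50.8% and 14.8%. RNA of these genes was thus found in nearly every E12.5 cell and in a minority of E16.5 cells at this depth.

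Alpl was found in 41.7% (40.2 to 43.1%), 22.3% (21.5 to 23.2%) and 1.89% (1.54 to 2.3%) of thinned cells, and Kit in 20.5% (19.4 to 21.7%), 8.92% (8.33 to 9.53%) and 4.54% (3.99 to 5.14%). At full depth Alpl was found in 90.9%, 41.4% and 5.1% of cells, and Kit in 69.3%, 20.0% and 11.6%. For these lower genes most cells at 0 are not shown to lack the RNA.

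**Figure D2:**
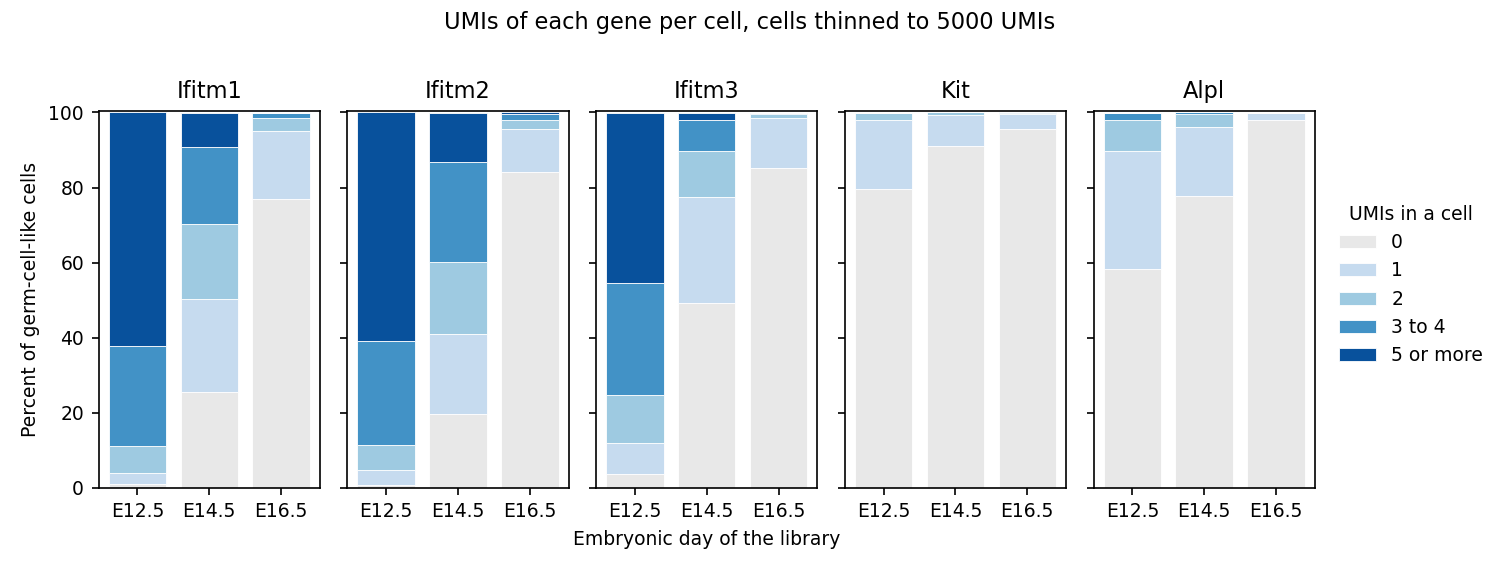
Percent of germ-cell-like cells with 0, 1, 2, 3 to 4 or 5 or more UMIs of each gene after thinning to 5000 UMIs, 1 bar per library. At 0 UMIs were 0.983% of E12.5 cells and 76.9% of E16.5 cells for Ifitm1, and 58.3% and 98.1% for Alpl.

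The spread of thinned UMIs among cells differed between the genes. The Fano factor (variance over mean of thinned UMIs, 1 for pure counting noise) of Kit was 0.975 at E12.5, 1.04 at E14.5 and 1.13 at E16.5, and that of Alpl 1.05, 1.13 and 1.22. For Kit at E12.5 the share of cells at 0 was 79.5%, against 79.7% for a Poisson count of the same mean. The thinned Kit counts of the E12.5 cells thus spread no wider than counting noise. At a mean of 0.227 UMIs, however, differences between cells would hardly widen such counts. Kit did differ between clusters of that library, with 8.65 CPM (3.48 to 17.8) in cluster 2 and 49 CPM (47.7 to 50.4) in cluster 0.

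At E12.5 and E14.5 the Ifitm genes varied more than counting noise. At E12.5 the Fano factor was 1.75 for Ifitm3, 1.37 for Ifitm1 and 1.26 for Ifitm2, against a median of 1.03 over the 4846 genes with a mean of at least 0.1. At E14.5 the 3 values lay between 1.66 and 1.73, with 19.7% of cells at 0 for Ifitm2 against 10.1% for a Poisson count. At E16.5 Ifitm2 was the most uneven, with a Fano factor of 2.14, and 84.1% of cells were at 0 against 78.2% for a Poisson count. The Fano factor of Ifitm3 at that stage was 1.15 (85.2% at 0 against 84.6%), beside 1.13 for Kit and 1.22 for Alpl. Where cells differ, a Fano factor grows with the mean, and the E16.5 means ran from 0.0208 UMIs (Alpl) to 0.305 (Ifitm1). These values therefore do not rank the genes by how unevenly cells hold them.

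The presence of the genes in the same cells was counted after thinning. All 3 Ifitm genes were found together in 94.8% of E12.5 cells, 38.5% of E14.5 cells and 2.23% of E16.5 cells. None of the 5 genes was found in 0 of 4680 E12.5 cells (which allows up to 3 cells), 6.51% of E14.5 cells and 55.5% of E16.5 cells. Cells with Kit and no Ifitm UMI numbered 0, 15 and 146 in time order. At E16.5, 146 of 240 cells with a Kit UMI and 2969 of 5047 cells without one had no Ifitm UMI, which are like shares.

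Across cells within a library, Pearson correlations of log thinned UMIs (described with no test, since the cells share 1 library) were weak at E12.5, with 0.13 to 0.16 among the 3 Ifitm genes. At E14.5 they were 0.37 for Ifitm1 with Ifitm2, 0.33 for Ifitm1 with Ifitm3 and 0.30 for Ifitm2 with Ifitm3, over 8894 cells. At that stage Alpl had an r of 0.16 with each Ifitm gene and Kit 0.10 to 0.11. In such sparse counts weak correlations are not read further.

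To place the genes along the course of each library, cells were ranked by a score that uses none of them, the log2 ratio of UMIs of 21 later meiotic genes (such as Sycp1 and Dmc1) to UMIs of 19 early genes (such as Pou5f1 and Dppa3), and cut into 5 equal groups. Such groups are ranges of a score and not cell types. At E14.5 all 5 genes were at least 2-fold lower in the last than in the first group, against 31.8% of all genes (19.3% were at least 2-fold higher). Ifitm1 stood at 672, 498, 359, 226 and 129 CPM from the first to the last group, and Ifitm3 at 381, 231, 158, 88.3 and 53.5 CPM. Alpl stood at 98.4, 74.3, 51.3, 31.1 and 13.7 CPM, and Kit at 34.2, 24.2, 19.8, 11.2 and 5.96 CPM. Each gene was lower at all 4 steps, and the intervals of neighbouring groups were apart at each step except 1 step of Kit. Median depth before thinning also fell, from 13608 UMIs per cell in the first group to 8830 in the last, and its part was not tested.

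At E12.5, 0 of 5 genes differed by 2-fold between the last and the first group, where 2.23% of all genes were lower and 4.53% higher by that much. Ifitm3 had the largest difference, 1025 CPM (997 to 1055) in the first group and 796 CPM (771 to 822) in the last. Kit (45.1 and 47.6 CPM) and Alpl (109 and 102 CPM) had overlapping intervals. Cluster 1 of this library (629 cells, led by the Y-linked Zfy1 and Eif2s3y among others) had a median score of -3.64, against -3.04 in cluster 0. It also had lower levels of all 5 genes than cluster 0, such as Alpl at 64.7 against 112 CPM. The part of these cells in the E12.5 values along the score was not tested.

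At E16.5, 4 of 5 genes were at least 2-fold lower in the last group, against 18.6% of all genes (2.73% were at least 2-fold higher). Ifitm2 went from 134 to 37.6, 24.8, 28 and 22.1 CPM, and Alpl from 12.1 to 2.65, 1.7, 2.46 and 1.89 CPM, so that most of the difference lay at the first step. Kit went from 16.3 to 11.9, 9.46, 8.14 and 3.41 CPM, lower at all 4 steps but with intervals apart at 1 of them. Ifitm1 was 2.27-fold lower (115 to 50.7 CPM) and Ifitm3 1.84-fold lower (55 to 29.9 CPM).

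The E16.5 values of the Ifitm genes and Alpl rested in large part on 319 cells that clustered with E14.5 cells and are described further on. In the E16.5 cells without them, ranked and divided anew, Ifitm1 was 1.17-fold lower in the last group (58.5 CPM, 52 to 65.6, against 50.1 CPM, 44.1 to 56.7) and Ifitm3 1.03-fold higher (29.5 and 30.4 CPM), both with overlapping intervals. Ifitm2 was still 2.38-fold lower (51.3 to 21.5 CPM), and Alpl 2-fold lower on 18 and 9 UMIs, with overlapping intervals. Kit was 5.66-fold lower (17.1 CPM, 13.6 to 21.1, to 3.02 CPM, 1.69 to 4.98), where 15.7% of all genes were at least 2-fold lower. The difference of Kit along the score was thus as large without these cells, and that of Ifitm1 and Ifitm3 was not seen.

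**Figure D3:**
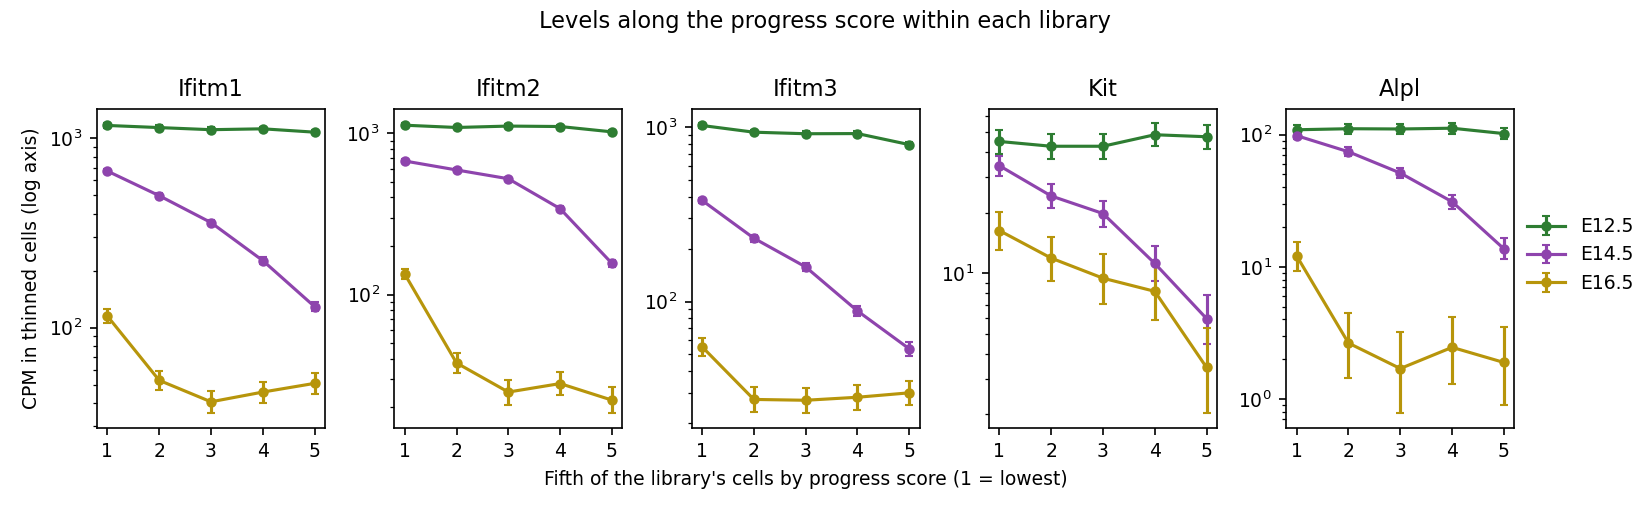
CPM of each gene in 5 equal groups of thinned cells ranked by the progress score (x axis, 1 is the lowest score), 1 line per library, log y axis, exact Poisson 95% intervals. E12.5 lines are nearly flat, E14.5 lines fall at every step, and the E16.5 lines of the Ifitm genes and Alpl drop mostly between groups 1 and 2. Without 319 cells that clustered with E14.5 cells, no difference between the first and last group was seen for Ifitm1 and Ifitm3. For Alpl the intervals of those groups then overlapped, on 18 and 9 UMIs.

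The clusters were formed without the 5 genes. At E14.5, cluster 4 (3094 cells, led by Cdh15 and Dlx3 among others), cluster 5 (2223 cells, led by Msx1, Ccnd1, Rec8 and Stra8) and cluster 6 (3302 cells, led by Tppp and Fgf11) had median scores of -0.10, 1.81 and 3.91. Ifitm3 stood at 322, 164 and 72.8 CPM in them, Alpl at 87.1, 55.6 and 21.5 CPM, and Kit at 32.5, 19.1 and 8.86 CPM. Of these 3 clusters, cluster 4 was thus highest and cluster 6 lowest for each of the 3 genes. In the small cluster 7 (208 cells, median score 4.17) Kit was lower still, at 2.64 CPM (0.718 to 6.75), Ifitm3 (71.2 CPM, 58.4 to 85.9) was not apart from cluster 6, and Alpl stood at 29 CPM (21.1 to 38.9).

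At E16.5, 319 of the 5312 germ-cell-like cells (6.01%) fell into clusters in which E14.5 cells were the most frequent. These cells held 6.81% of the library's germ-cell-like UMIs but 51% of its Alpl UMIs, 46.1% of Ifitm2, 31.7% of Ifitm1, 28.1% of Ifitm3 and 8.63% of Kit UMIs. Alpl stood at 39.2 CPM in them and at 2.75 CPM in the other 4993 cells, and Ifitm2 at 402 and 34.3 CPM, whereas Kit stood at 14.1 and 10.9 CPM. Of the 319 cells, 5 shared a barcode with the E14.5 library, as did 66 of the others. Without these cells Alpl was lower at E16.5 than at E14.5 by a log2 ratio of -4.37 in place of -3.45, and Ifitm2 by -3.84 in place of -3.05.

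Between the 2 clusters that hold the remaining E16.5 cells Kit went against the other genes. Cluster 9 had a lower median score (5.12) than cluster 8 (5.52). Kit, lower at the end of the score in these cells, was thus higher in the cluster of lower score. Ifitm2 was also lower at the end of the score, yet it was lower in cluster 9. In cluster 9 (3097 cells) Kit stood at 15.1 CPM (13.9 to 16.4), 3.72-fold higher than the 4.06 CPM (3.3 to 4.94) of cluster 8 (1896 cells), where 22.0% of all genes were at least 2-fold higher in cluster 9. Ifitm2 was 4.72-fold lower in cluster 9 (14.1 against 66.7 CPM) and Alpl 2.52-fold lower (1.74 against 4.39 CPM), with 6.00% of all genes at least 2-fold lower. Ifitm1 (39.5 against 70.9 CPM) and Ifitm3 (25.4 against 37 CPM) were within 2-fold.

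A finer clustering narrowed this down. In its cluster 18 (1286 cells, all of the E16.5 library, led by Gm13269 and Asic5 among others) Kit stood at 27.2 CPM (24.8 to 29.8), above the 21.1 CPM of the E14.5 library as a whole. That cluster held 60.5% of the E16.5 Kit UMIs with 24.2% of the germ-cell-like cells, and 10.9% of its thinned cells had a Kit UMI (9.2 to 12.7%). In clusters 14 and 16 Kit stood at 3.23 CPM (2.34 to 4.33) and 3.25 CPM (2.31 to 4.45). Ifitm2 had its lowest level in cluster 18 (9.94 CPM, 8.5 to 11.6), where Ifitm1 (34.6 CPM) and Ifitm3 (20.7 CPM) were lowest too. The median score of cluster 18 was 4.58, below the 5.36 to 5.95 of clusters 14, 16 and 17. Its cells, with the higher Kit, thus lie lower on the score than those clusters. Cluster 13, at a median score of 4.75, had 0 Kit UMIs in 83 cells (up to 4.28 CPM). In cluster 15, at a score of 3.77, Kit stood at 11.1 CPM (8.23 to 14.7). Across all these clusters higher Kit therefore did not simply follow a lower score. Cluster 15 (281 cells, led by Hist1h2ap, median score 3.77) had the highest Ifitm2 (263 CPM), Ifitm1 (177 CPM) and Alpl (21.8 CPM) of the finer clusters with at least 50 E16.5 cells.

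**Figure D4:**
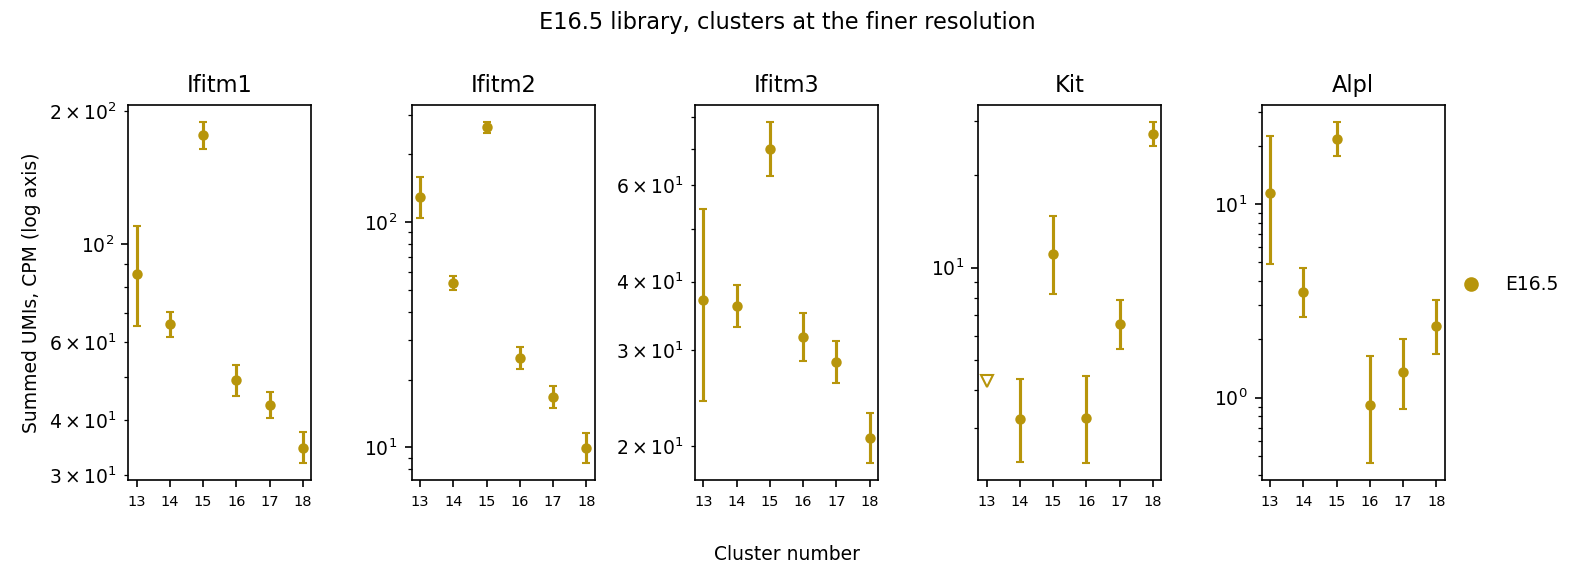
CPM of each gene in the clusters of the E16.5 library at the finer resolution that hold at least 50 of its cells, log y axis, exact Poisson 95% intervals, with an open triangle at the limit that 0 counts allow. Kit is highest in cluster 18 (27.2 CPM), where the 3 Ifitm genes are lowest, and among the clusters shown Ifitm2 is highest in cluster 15 (263 CPM).

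**Figure D5:**
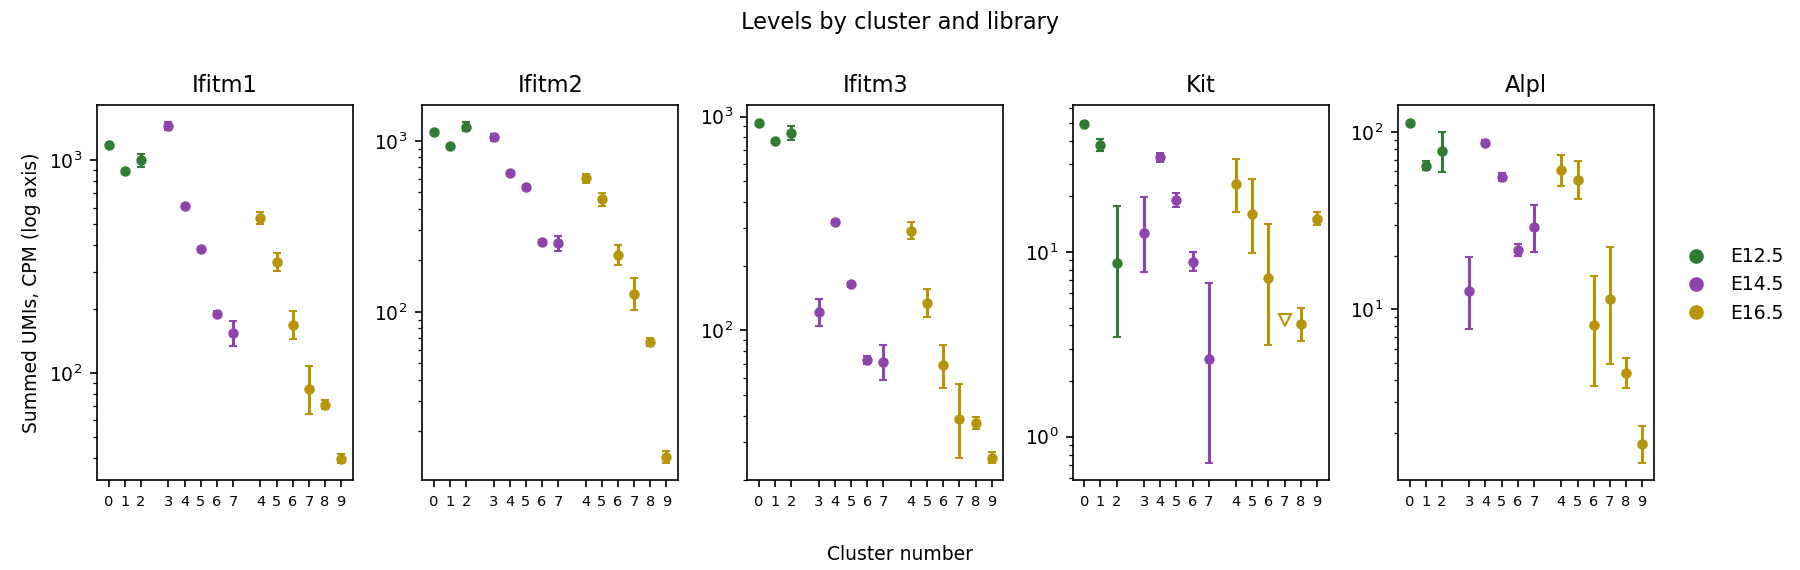
CPM of each gene by cluster and library for clusters with at least 50 cells of the library, log y axis, exact Poisson 95% intervals, with an open triangle at the limit that 0 counts allow. Cluster 3 is pregranulosa-like, and there Ifitm1 (1456 CPM) and Ifitm2 (1050 CPM) exceed every E14.5 germ-cell-like cluster.

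The pregranulosa-like cells show how far the 5 genes are particular to germ cells. At E14.5 their 166 cells had Ifitm1 at 1456 CPM (1397 to 1517) and Ifitm2 at 1050 CPM (1000 to 1102), both above the germ-cell-like cells of that library (411 and 489.5 CPM). Ifitm3 (122 CPM, 105 to 140.0), Alpl (12.7 CPM, 7.77 to 19.7) and Kit (12.7 CPM, 7.77 to 19.7) were below the germ-cell-like levels of 199.8, 57.1 and 21.1 CPM. This order did not hold at each stage. In the 22 cells of E16.5 Ifitm3 stood above the germ-cell-like level (173 CPM, 129 to 227, against 38.7 CPM), as did Ifitm1 (532 CPM) and Ifitm2 (695 CPM). In the 25 cells of E12.5 Ifitm2 (1054 CPM, 955 to 1160) was not apart from the 1099 CPM of germ-cell-like cells, while Ifitm1 (2072 CPM) was above and Ifitm3 (587 CPM), Alpl (40.3 CPM) and Kit (22.7 CPM) were below. These cells also had 17 of 20 germ cell markers in at least 10% of the cells, so germ cell RNA is present in them.

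After thinning, 3.01% of E14.5 pregranulosa-like cells had a Kit UMI (0.985 to 6.89%, median depth 8492 UMIs) against 8.92% of germ-cell-like cells (median depth 11003 UMIs). At E16.5 the shares were 4.55% (1 of 22 cells, 0.115 to 22.8%) and 4.54%. The Kit level was 3.39 CPM (0.0859 to 18.9) and 11.1 CPM (10.3 to 11.9), and with so few pregranulosa-like cells neither measure could show a difference. Kitl, the ligand of KIT and a product of the supporting cells, stood at 134 CPM (116 to 153) in the E14.5 pregranulosa-like cells and at 0.205 CPM (0.127 to 0.313) in the germ-cell-like cells. Its levels in germ-cell-like cells at E12.5 and E16.5 were 0.128 and 0.188 CPM. The pregranulosa-like cluster was named from markers of the supporting cells, and Kitl is such a marker. The difference in Kitl between these cells and the germ-cell-like cells was thus partly fixed by the naming and is not a separate result.

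The E12.5 cells with a Y-linked UMI had lower levels of all 5 genes than the other 4014 cells. Alpl stood at 68.9 CPM (65.3 to 72.8) against 111 CPM (109 to 113), Ifitm1 at 915 against 1173 CPM, Ifitm3 at 779 against 936 CPM, Ifitm2 at 959 against 1123 CPM and Kit at 39.4 CPM (36.7 to 42.4) against 48.6 CPM (47.3 to 49.9). Without these cells every ratio from E12.5 to the later stages kept its direction, with Alpl at a log2 ratio of -0.96 in place of -0.88 at E14.5.

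Of 55 genes around KIT signalling, 13 passed 2-fold upward and 13 downward from E12.5 to E14.5 (median log2 ratio 0.06, against 0.30 over all genes), where 31.3% of all genes passed upward and 16.3% downward. Between E14.5 and E16.5, 3 were at least 2-fold higher and 7 lower (median -0.22, all genes 0.06), against 16.3% and 17.4% of all genes. The largest ratio over the whole span was that of Dusp6, which encodes a phosphatase of ERK kinases and is itself an ERK target, at 26.5, 1.46 and 0.391 CPM. The pro-apoptotic gene Bax stood at 483, 207 and 106 CPM, and the kinase gene Map2k2 at 221, 309.7 and 178 CPM. The GTPase gene Rheb stood at 225, 168 and 123 CPM, and Rps6, of the ribosome, at 4136, 5684 and 4679 CPM.

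Genes of GPI anchor synthesis, which ALPL needs for its place at the surface, did not follow Alpl. Of 27 measured, 15 were at least 2-fold higher and 3 lower at E16.5 than at E12.5 (median 1.19, all genes 0.39), where 37.0% of all genes were at least 2-fold higher and 22.7% lower. Pigp, of the first step of the pathway, stood at 67, 584 and 1003 CPM, and Pigk, of the transamidase that attaches the anchor, at 12.7, 56.7 and 147 CPM. Dpm3, of the mannose donor synthase, stood at 127, 85.4 and 46 CPM, and Pigf at 47.2, 108 and 138 CPM. Of 6 measured genes for the substrates and cofactor of alkaline phosphatase, 1 was at least 2-fold higher and 2 lower over the same span, too few to set against those shares of all genes. Pdxk, of vitamin B6 metabolism, stood at 5.69, 4.87 and 1.94 CPM. The phosphate transporter genes Slc20a1 and Slc20a2 stood at 16.7, 14.4 and 28.3 CPM and at 8.09, 7.63 and 6.22 CPM.

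The interferon response list went both ways, with 11 of 29 measured genes at least 2-fold higher and 7 lower at E14.5, against 31.3% and 16.3% of all genes. Between E14.5 and E16.5, 3 were higher and 13 lower by that much, against 16.3% and 17.4% of all genes. Bst2, which encodes the antiviral membrane protein tetherin, stood at 229.6, 86.5 and 17.4 CPM. The receptor gene Ifnar1 stood at 9.35, 53.8 and 44.3 CPM, Jak1 at 26, 77.3 and 81.9 CPM and Irf3 at 30.2, 40.0 and 65.4 CPM. Bst2 was thus lower at both steps, as the Ifitm genes were, while Irf3 was higher at each later stage.

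Of 26 other surface genes used for germ cells, 14 were at least 2-fold lower and 8 higher at E16.5 than at E12.5 (median -1.60, all genes 0.39), against 22.7% and 37.0% of all genes. Cd24a had the largest ratio among those named by the rule, at 118, 31.4 and 4.61 CPM. Epcam, an epithelial adhesion molecule, stood at 226, 89.4 and 44.4 CPM, the tetraspanin gene Cd9 at 73.3, 98.3 and 49.3 CPM and the transferrin receptor gene Tfrc at 25.8, 47.6 and 79.4 CPM.

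The genes nearest in their 2 log2 ratios between successive stages were sought among 3586 genes of at least 50 CPM. For Ifitm1 they were Rhox9, Gsr, Itm2c, Prdx2 and Fscn1 (distance 0.10 to 0.18 log2 units), with Rhox9, a homeobox gene, at 1030, 399 and 69.5 CPM. For Ifitm2 they were Grn, Sparc, Aes, Amdhd2 and Porcn (0.18 to 0.27), and for Ifitm3 they included Acot1, Prdx6, Foxr1 and Txn1 (0.13 to 0.30). For Kit they were Cdc20, Bax, Mtch1, Hnrnpa0 and Npc2 (0.02 to 0.10), with Cdc20, an activator of the anaphase-promoting complex, at 268, 119 and 63.2 CPM. For Alpl they were Tspo, Pdpn, Amdhd2, Alkbh7 and Msx2 (0.24 to 0.45), with Tspo at 85.4, 43.4 and 3.42 CPM. These distances rest on 3 libraries.

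Across E14.5 cells the highest correlation of Ifitm1 (r = 0.47), Ifitm3 (0.42) and Alpl (0.22) was with Dppa3, an early germ cell gene, and that of Ifitm2 with Rhox5 (0.41), over 8894 cells. The lowest was with Sycp3 for Ifitm1 (-0.44), with Smc1b for Ifitm3 (-0.40) and Alpl (-0.24), and with H2-D1 for Ifitm2 (-0.41). At E16.5 the highest were Stra8 for Ifitm2 (0.45), Ifitm2 for Ifitm1 (0.27) and Rhox5 for Ifitm3 (0.20), over 5287 cells. These include the cells that clustered with E14.5 cells, which held 46.1% of the E16.5 Ifitm2 UMIs. Their part in the correlations was not tested. At E12.5 no highest value exceeded 0.16. Cells of a library share its depth and composition, and no test was made.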

How the data were processed

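Per the labels' protocols, libraries were made from sorted cells with 10x Genomics Chromium reagents (3' kit, version 2). The tools and build named in the submitters' processing notes are FastQC, Cell Ranger 2.0.0 and mm10. How these were run, and how cells and genes were filtered, is not given in the sources here. The table the authors deposited holds the natural log of 1 plus UMIs per 10000 of the cell, for 14133 genes in 19144 cells. With the log undone each cell summed to 10000.0, and whole UMIs were recovered within 0.01 for 100.0% of 68606039 non-zero values. The plan named mean log values as a fallback, and since UMIs were recovered, sums of UMIs were used.

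Doublets were called per library with Scrublet in scanpy 1.11.5 at an expected rate of 6%, which marked 0.178% of cells, far too few to have worked unless doublets had been removed before, so doublets may remain. Clusters used 2000 variable genes without the 5 genes, 30 principal components, 15 neighbours and Leiden resolution 0.5 (finer: 1.0). They were named from fixed markers found in at least 10% of cells. Their defining genes are not results. Of the germ-cell-like clusters, cluster 5 alone had germ cell markers among its 10 leading genes, and the others were named by how many of the markers they held. UMIs were summed per stage over germ-cell-like cells. Genes needed 10 UMIs over the 3 sums, and a 0 was set to 3 counts. Thinning drew UMIs without replacement with a fixed seed. Sums, ratios and thinning were tested on simulated data.

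Besides the 5 genes, those named were the 5 nearest in stage ratios, the highest cell correlation (in at least 10% of thinned cells), and in each list the 4 of highest CPM and the 1 of largest ratio from at least 10 CPM. Mitochondrial, ribosomal protein, haemoglobin, Gm-numbered and Rik genes were left out of the search for alike genes. A few genes that the rule names are not reported here. The lowest cell correlations, Kitl and Pecam1 were chosen after their values were seen. The genes and lists were chosen with earlier results of these data known. Promoter windows are from RefSeq (5 of 5 genes matched), and gene positions from GENCODE M21 on GRCm38.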

Additional observations from a re-analysis of the deposited data

How the results depend on the processing

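All 5 genes were lower at each later stage under CPM, median-of-ratios and TMM scaling, mean CPM over cells, cells of any cluster, thinned cells, E12.5 cells without a Y-linked UMI, E16.5 cells of E16.5-led clusters only (added after the data were seen) and the difference of mean natural logs. By the last measure, which compresses low values, 3 genes passed 2-fold between E12.5 and E14.5 in place of 4 (Kit at -0.31 in place of -1.16), 2 between E14.5 and E16.5 in place of 4, and 3 between E12.5 and E16.5 in place of 5. Over the alternatives other than the mean natural logs and the added one, the log2 ratio from E12.5 to E16.5 ranged from -4.39 to -3.98 for Ifitm1, -4.59 to -4.14 for Ifitm2, -4.94 to -4.53 for Ifitm3, -2.47 to -2.09 for Kit and -4.71 to -4.33 for Alpl. Of all genes past 2-fold over that span, 62% were higher under CPM and 51.1% under median-of-ratios scaling. All 30 shares of cells under other depths moved beyond their counting interval, since the share of cells with a UMI depends on depth. With 3 in place of 5 score groups the 5 genes kept their directions at each stage, but at E16.5 Ifitm1 (log2 ratio -0.94) was no longer 2-fold lower. In E16.5 cells of E16.5-led clusters (also added after the data were seen), the log2 ratio of Ifitm3 from the first to the last score group was 0.04 in place of -0.88, and that of Ifitm1 -0.22 in place of -1.19. No paired analysis was possible because each stage is 1 library. Depth limits Kit and Alpl most, whose E16.5 sums held 765 and 361 UMIs.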

Other observations

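The genes around the Ifitm cluster were not all lower with it. Of 15 measured genes starting within 200 kb of an Ifitm start, 4 were at least 2-fold higher and 4 lower at E16.5 than at E12.5 (median log2 ratio -0.62, all genes 0.39), against 37.0% and 22.7% of all genes. Psmd13, of the proteasome, stood at 198, 131 and 117 CPM in time order, Hras at 102, 87.8 and 66 CPM and Ptdss2 at 73.4, 35.1 and 44 CPM, while Syce1, of the synaptonemal complex, stood at 37.6, 265 and 288 CPM and Lrrc56 at 1.05, 6.27 and 18.2 CPM. Ifitm5, a bone-associated family member in the same stretch, was barely found, at 1.2, 0.585 and 0.0435 CPM, and Ifitm10, which lies outside this window, at 0.399, 5.9 and 1.36 CPM. Of 5 measured genes near Alpl, 2 were at least 2-fold higher and 1 lower over the same span, near those shares, with Eif4g3 at 15.1, 46.6 and 51.3 CPM.

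Cluster 2 (67 cells, all E12.5, with a median of 10405 UMIs per cell) had Kit at 8.65 CPM (3.48 to 17.8), below the 49 CPM (47.7 to 50.4) of cluster 0 in the same library. Ifitm1 (1001 CPM, 933 to 1073, against 1176 CPM), Ifitm3 (839 CPM, 777 to 905, against 938 CPM) and Alpl (77.9 CPM, 59.8 to 99.6, against 112 CPM) were also lower there. Ifitm2 was higher there (1213 CPM, 1138 to 1291, against 1125 CPM, 1118 to 1131). The part of the lower depth of these cells was not tested.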
